A study of Xenopus tropicalis with 4 samples.

Results

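Notch signalling lets neighbouring cells choose different fates, and in the frog embryo it acts in neurogenesis, somite formation and the germ layers. Here the genes of the pathway, of its Hes and Hey effectors and of the Id family were examined for E2F1 and OTX1 binding at stage 8, a blastula stage. The set was chosen by gene symbol from the RefSeq table of the Xenopus tropicalis assembly UCB_Xtro_10.0, and 41 of 21749 protein-coding genes on the 10 chromosomes fell into it. It held 4 receptors (notch1 to notch4), 4 ligands (dll1, dll4, jag1 and jag2) and 4 genes of the nuclear complex (rbpj and maml1 to maml3). Another 7 act in processing, trafficking or glycosylation and are called processing genes here (adam10, adam17, lfng, mib1, numb, numbl and rfng). A further 17 were Hes genes, 2 were Hey genes (hey1 and hey2) and 3 were Id genes (id2 to id4). Binding values played no part in the choice by symbol, although the set was proposed with earlier results of these data known. The symbols mfng, heyl and id1 had no match in the table and were not analysed here.

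A Notch receptor binds a Delta or Jagged ligand on the next cell, is cut by proteases, and releases an intracellular fragment that enters the nucleus. There it joins the DNA-binding protein RBPJ and a Mastermind protein and switches on target genes, of which the Hes and Hey repressors are the best known. Hes and Hey proteins block proneural genes, and Id proteins block related factors by pairing with them in a form that cannot bind DNA. E2F1 is a factor of the cell cycle genes, and OTX1 is a homeodomain protein of the anterior embryo. The series asked how these maternal factors act on the first zygotic transcription.

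Chromatin immunoprecipitation and sequencing was done on whole embryos, with 2 libraries per factor. The E2F1 libraries came from embryos that received E2F1 mRNA together with an MO (in this field a morpholino, whose target the labels do not name) and were precipitated with an HA antibody. The OTX1 libraries came from embryos given OTX1 mRNA with an MO, and an antibody to the Myc tag was used on them. The labels call both genotypes a rescue, so the protein mapped came from injected mRNA rather than from the embryo's own gene. Whether replicates came from different clutches is not stated, so the spread between them, and any p-value from it, may be technical. No input library and no expression measurement was analysed here, so binding is described without its effect on the genes.

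The lists held 16770 and 20385 E2F1 peaks and 27755 and 29098 OTX1 peaks in replicates 1 and 2, with a median of 15 to 16 fragments at the summit. Where the replicate lists had peaks overlapping by 1 bp or more, these were joined into 1 reproducible region, giving 13216 E2F1 and 17768 OTX1 regions. A gene has a region within 1 kb or 5 kb when the region's summit lies that close to either annotated end. The gene table gives no strand, so the start and the end of transcription are not told apart. Each peak carries the authors' fold, the ratio of the signal at its summit to the local background used in peak calling. A region's summit is that of its peak with the highest fold percentile within its list, so it comes from 1 replicate. Folds rank peaks within a list and are not compared between the factors, because the weakest E2F1 peaks had a q-value of 0.0492 and 0.0470 and the weakest OTX1 peaks one of 0.00999 and 0.00977. Coordinates are 1-based on xenTr10, the build named in the OTX1 peak names.

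E2F1 regions lay within 1 kb of an end at most receptor and processing genes. Of the 41 genes, 20 (48.8%) had an E2F1 region within 1 kb of an end, against 34.9% of all protein-coding genes and 34.9% of the 21708 other genes. Among the receptors it was 3 of 4, among the ligands 1 of 4, among the processing genes 5 of 7 and in the nuclear complex 2 of 4. Among the Hes genes it was 5 of 17, among the Hey genes 2 of 2 and among the Id genes 2 of 3. The share also differed by gene length. It was 12 of 19 (63.2%) for genes of the set of 10 kb or longer, against 39.8% of other genes of that length. For those under 10 kb it was 8 of 22 (36.4%), against 26.1%. The 9 genes with a hes5 name had none there, but the summit at hes5.9 lay just outside the window at 1012 bp, and in E2F1 replicate 2 its peak had a summit inside it (fold 5.47). In all 20 genes the region lay at 1 end alone, and in 18 its summit was within 300 bp of that end. Neither count is given for other genes. Summits close to an end were common there too, as 31.8% of other genes had one within 500 bp and 34.9% within 1 kb. The shares are descriptions of these genes, and no test was made of the set.

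**Figure D1:**
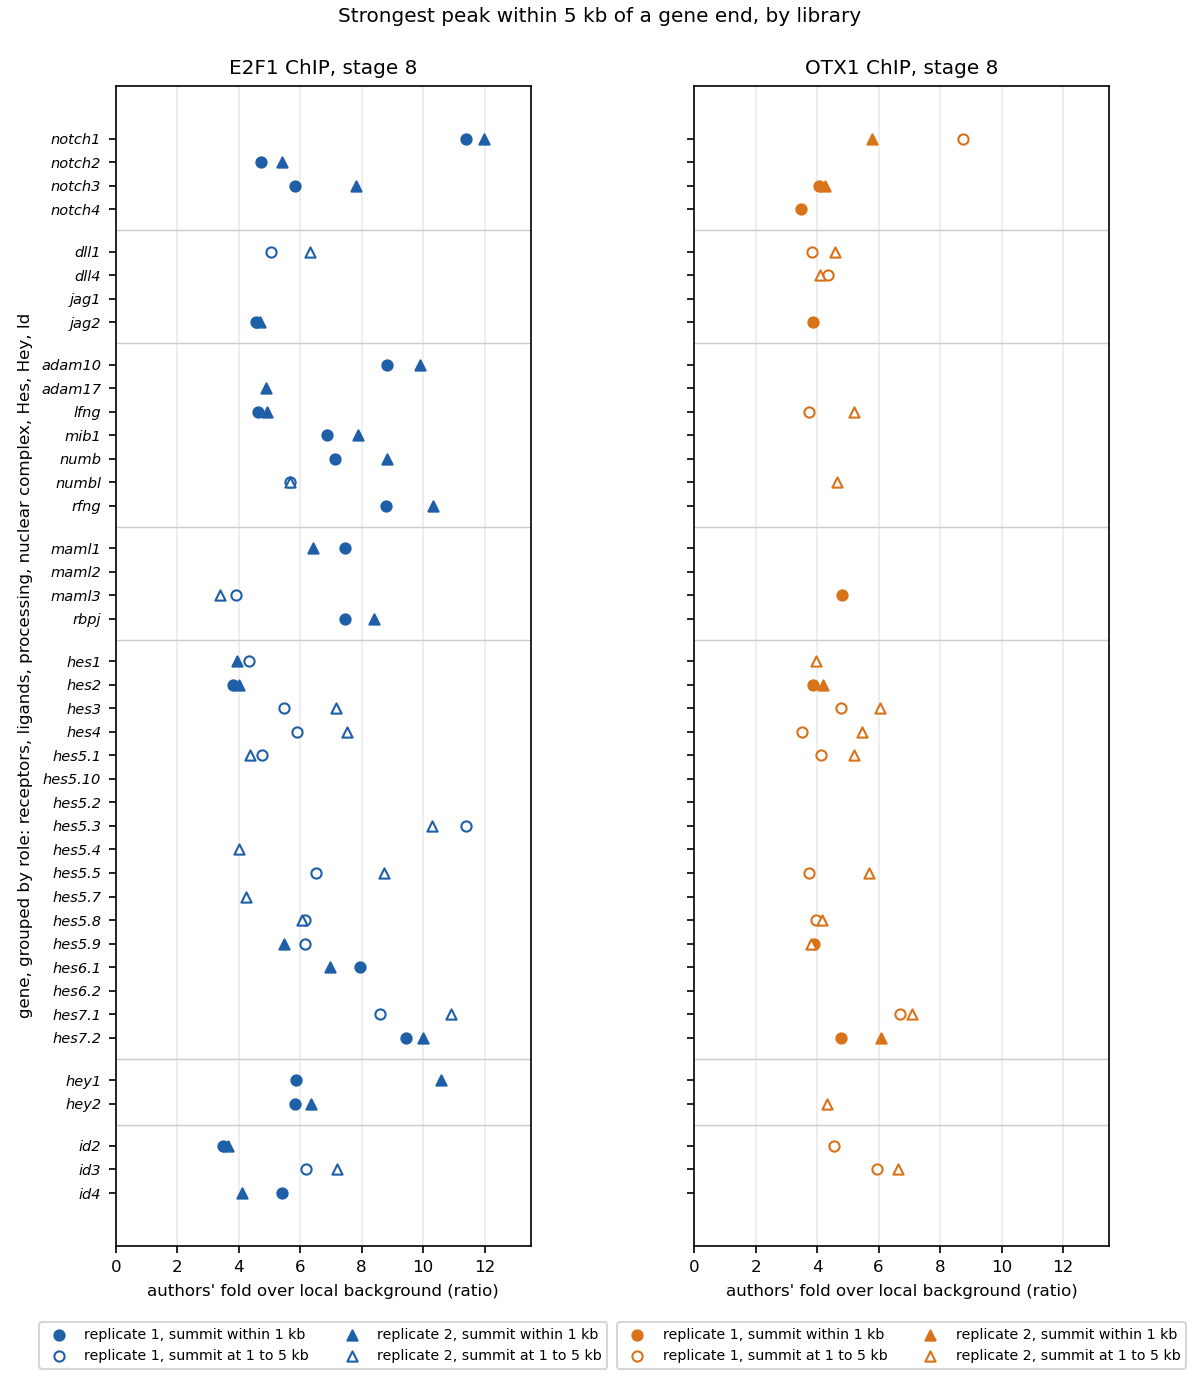
Each row is 1 of the 41 genes and the x axis is the authors' fold (a ratio) of its strongest peak within 5 kb of an end, with E2F1 on the left and OTX1 on the right. Circles are replicate 1 and triangles replicate 2, filled where that peak's summit is within 1 kb and open at 1 to 5 kb, and rows without a mark had no peak in that list. Notch1 (11.4 and 12.0) and hes5.3 (11.4 and 10.3) have the highest E2F1 marks in replicate 1, and the hes5 marks for E2F1 in replicate 1 are all open.

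All receptor genes but notch4 carried E2F1 at an end. The region at notch1, a receptor of frog neurogenesis, had a fold of 11.4 and 12.0 in E2F1 replicates 1 and 2 (chromosome 8, 6618418 to 6619139, summit 195 bp beyond the annotated end). An OTX1 region covered the same place with folds of 5.02 and 5.77 in OTX1 replicates 1 and 2, and the summits of the factors lay 43 bp apart. That OTX1 summit was taken from 1 replicate and rested on few fragments (12 and 13 in replicates 1 and 2). The OTX1 region was lost when replicate summits had to lie within 100 bp, and also with a reciprocal overlap of 50%. The E2F1 region at notch1 was the highest at an end of any of the 41 genes, with a mean fold percentile of 96.8 over both E2F1 lists. A shared place 4636 bp beyond the other end of notch1 (6.90 and 7.24 for E2F1, 8.75 and 5.46 for OTX1) was 72 bp from the neighbour sec16a. At notch3 the E2F1 region had folds of 5.83 and 7.81 (chromosome 3, 132712958 to 132714007), and the OTX1 region that overlapped it had 4.07 and 4.25. The notch3 summits were 573 bp apart, each taken from 1 replicate. Both notch3 regions were lost when replicate summits had to lie within 100 bp, so this distance is uncertain. At notch2 the folds were 4.73 and 5.41 for E2F1, with no OTX1 peak within 5 kb in either list. The remaining receptor gene, notch4, had no E2F1 region nearer than 18401 bp, and an OTX1 peak at its end in replicate 1 alone (fold 3.48).

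Among the ligand genes only jag2 carried E2F1 within 1 kb. Its region had weak folds of 4.56 and 4.70 with the summit 155 bp from the end, and OTX1 had a peak there in replicate 1 alone (fold 3.87). At dll1, the Delta ligand of early neurogenesis, E2F1 (5.05 and 6.32) and OTX1 (3.82 and 4.58) met 1240 and 1265 bp from the annotated end, with summits 25 bp apart (chromosome 5, 50497066 to 50497539 for E2F1). The dll4 gene had its E2F1 region inside the gene, 5930 bp from the nearer end, and its folds of 13.0 and 14.8 exceeded those of every region within 5 kb of the 41 genes (chromosome 8, 115517638 to 115518351). That region, outside both windows, was picked out after its values were seen. A separate OTX1 region in dll4 had folds of 4.35 and 4.10 and lay 4063 bp from the end. At jag1 no list had a peak within 5 kb, and the nearest E2F1 region was 107083 bp away.

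Of the 7 processing genes, 6 had an E2F1 region within 5 kb of an end, against 43.6% of all protein-coding genes. An OTX1 region lay there at 1 of the 7, against 22.0% of all protein-coding genes. At adam10, the protease that makes the first activating cut in Notch, E2F1 had folds of 8.83 and 9.90 with a summit 14 bp from the end (chromosome 3, 99286504 to 99287594). It rested on 54 and 71 fragments, more than the summits of notch1 (36 and 44). At mib1, the ubiquitin ligase that makes ligands internalise, the folds were 6.87 and 7.88 with a summit 17 bp from the end. For numb, an inhibitor of Notch that is passed to 1 daughter cell at division, they were 7.12 and 8.81. The fringe glycosyltransferase genes rfng (8.80 and 10.3) and lfng (4.64 and 4.92) carried it too. The regions of rfng and numb also lay at the ends of neighbours, 137 bp from gps1 and 231 bp from stard9, so each is counted for both genes of the pair. No OTX1 peak of either list lay within 5 kb of adam10, mib1, numb or rfng, whereas lfng had OTX1 regions 3547 bp (folds 3.73 and 5.18) and 4563 bp (3.42 and 3.99) from its ends. Farther inside the gene, adam10 (folds 8.28 and 12.8, 25018 bp from the end) and mib1 (7.43 and 10.7, 16736 bp) did have OTX1 regions. Of the remaining processing genes, E2F1 reached numbl, at 3441 bp (5.66 and 5.67) but only 1377 bp from the gene prx, and adam17 had a peak in E2F1 replicate 2 alone (4.89). Numbl also had an OTX1 peak within 5 kb in replicate 2 alone (4.64).

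In the nuclear complex, rbpj and maml1 carried E2F1 at an end. Rbpj, the DNA-binding core through which Notch acts, had folds of 7.44 and 8.39 (chromosome 1, 32003013 to 32003598, summit 239 bp inside the gene), and the coactivator gene maml1 had 7.45 and 6.43. Neither gene had an OTX1 peak within 5 kb in either list, and the nearest OTX1 region to rbpj was 127242 bp away. Maml3 had a weak E2F1 region 1460 bp from its end (3.92 and 3.38) and an OTX1 peak within 1 kb in replicate 1 alone (4.80). Maml2 had no peak of any list within 5 kb.

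At the Hes genes most E2F1 lay beyond 1 kb of the ends. Within 5 kb of an end, 12 of 17 had an E2F1 region, 7 of them at 1 to 5 kb alone, whereas 14 of the 19 receptor, ligand, processing and nuclear complex genes had one and only 3 of these lay at 1 to 5 kb alone. Over the whole set 31 of 41 (75.6%) had an E2F1 region within 5 kb, against 43.6% of all protein-coding genes and 43.6% of other genes. The share grew from 1 kb to 5 kb by more points than it did for other genes, as the curve by distance shows. Hes and Hey genes are short, with a median length of 2590 bp against 15516 bp over other genes, so the windows at their ends overlap and together cover less sequence. Among the genes under 10 kb the share within 5 kb was 17 of 22 (77.3%), against 35.1% of other genes of that length. Among the longer ones it was 14 of 19 (73.7%), against 48.2%. Counting each region once, the joined 5 kb windows of the 41 genes held 44 E2F1 regions, or 6.64 per 100 kb, against 2.51 per 100 kb for other genes.

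**Figure D2:**
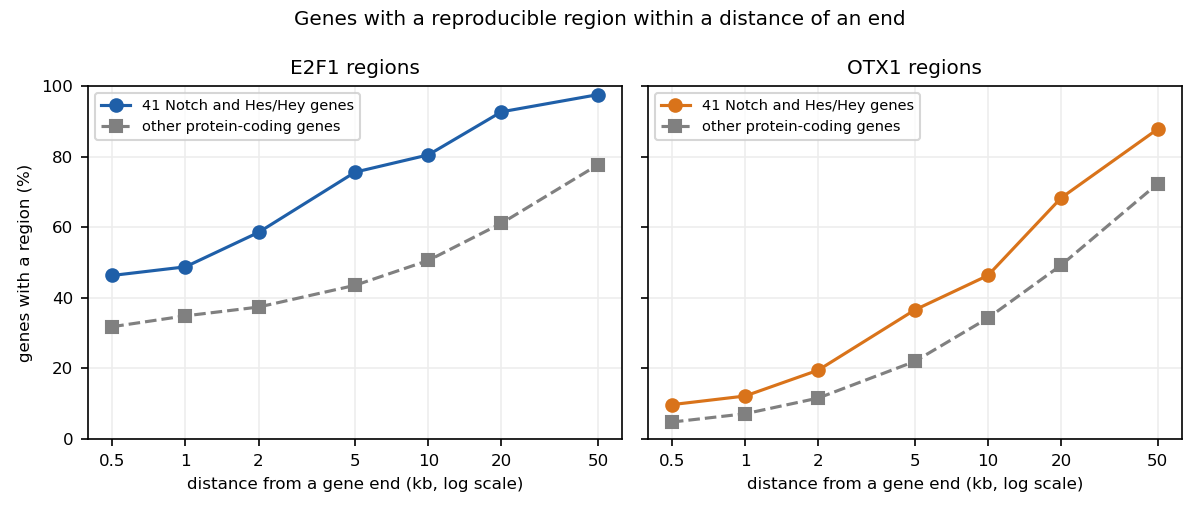
The share of genes (y axis, percent) with a reproducible region whose summit lies within a given distance of an end (x axis, kb, log scale), for the 41 genes (coloured, solid) and the 21708 other genes (grey, dashed), E2F1 on the left and OTX1 on the right. At 5 kb the E2F1 share is 75.6% for the 41 genes and 43.6% for other genes, and the OTX1 share is 36.6% and 22.0%.

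Both factors were found at hes7.1 and hes7.2, whose mouse relative is a gene of the somite clock. At hes7.2 the E2F1 region had folds of 9.43 and 9.99 with its summit 95 bp from the annotated end (chromosome 3, 144601118 to 144601578). The OTX1 region over it had 4.77 and 6.06, and the summits of the factors were 239 bp apart. That OTX1 region rested on 13 and 17 fragments in replicates 1 and 2. Requiring replicate summits within 100 bp removed it, as did a −log10 q cut-off of 5. At hes7.1 E2F1 lay 334 bp outside the gene with folds of 5.75 and 4.22, and inside the gene, 1265 bp from an end, with 8.60 and 10.9. OTX1 overlapped the inner region (4.01 and 6.32, summits 44 bp apart) and had a second region 1734 bp outside the gene (6.70 and 7.09). Between the genes, 7178 bp from hes7.1, lay an E2F1 region with folds of 17.1 and 19.3 that was shared with OTX1 (9.0 and 9.16) and had summits 65 bp apart (chromosome 3, 144631715 to 144632588). It stood outside the 5 kb window and was picked out after its values were seen. Its mean fold percentile was 99.9 over both E2F1 lists and 96.5 over both OTX1 lists.

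Of the other Hes genes with E2F1 within 1 kb, hes6.1 had folds of 7.95 and 6.96 and no OTX1 peak within 5 kb. At hes1, a general Notch target, 3 E2F1 regions of low fold lay 213, 1581 and 2929 bp beyond the end. The nearest had folds of 3.47 and 3.96, and OTX1 had a peak within 5 kb in replicate 2 alone (3.97). At hes2 E2F1 (3.81 and 4.01) and OTX1 (3.86 and 4.20) overlapped at the end, with summits 399 bp apart and folds low within the lists of each factor. The neural border gene hes4 had E2F1 at 2640 bp (5.91 and 7.53) and a shared place at 4138 bp (4.52 and 4.39 for E2F1, 3.52 and 5.46 for OTX1). Hes3 had E2F1 at 1712 bp (4.71 and 5.33) and at 4563 bp (5.48 and 7.15) and OTX1 at 3315 bp (4.76 and 6.05). The related gene hes6.2 had no peak of any list within 5 kb.

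The hes5 family includes targets of Notch in neural precursors. Among the 9 genes with a hes5 name, regions lay mostly between the genes, with 1 E2F1 region of low fold inside hes5.8 (3.22 and 3.57). The place beyond hes5.9 is also within 5 kb of hes5.8 and is counted for both. In the chromosome 7 cluster from hes5.3 to hes5.10, with 12 kb on either side, there were 6 E2F1 and 4 OTX1 regions, and 3 places were shared. The shared places were 2709 bp from hes5.5 (E2F1 6.50 and 8.74, OTX1 3.74 and 5.69), 3028 bp from hes5.8 (E2F1 4.45 and 3.59, OTX1 3.97 and 4.15) and 1012 bp from hes5.9 (E2F1 6.17 and 5.47, OTX1 3.90 and 3.79). The OTX1 summit at hes5.9 was 776 bp from the end, which made it the only OTX1 region within 1 kb of a hes5-named gene. In OTX1 replicate 2 the summit of its peak (fold 3.79) lay outside that window. The tallest E2F1 region of the cluster (11.4 and 10.3) is counted for hes5.3 at 2012 bp, but it lay 344 bp from the end of the neighbour nol9. Hes5.1, at a separate place on the same chromosome, had E2F1 (4.76 and 4.36) and OTX1 (4.14 and 5.21) together outside the gene, at 2301 and 2261 bp. No list had a peak within 5 kb of hes5.2 or hes5.10, while hes5.4 (4.01) and hes5.7 (4.24) had 1 in E2F1 replicate 2 alone. The shared place counted for hes5.8 lay just outside the window of hes5.7, at 5064 bp for E2F1 and 5114 bp for OTX1.

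**Figure D3:**
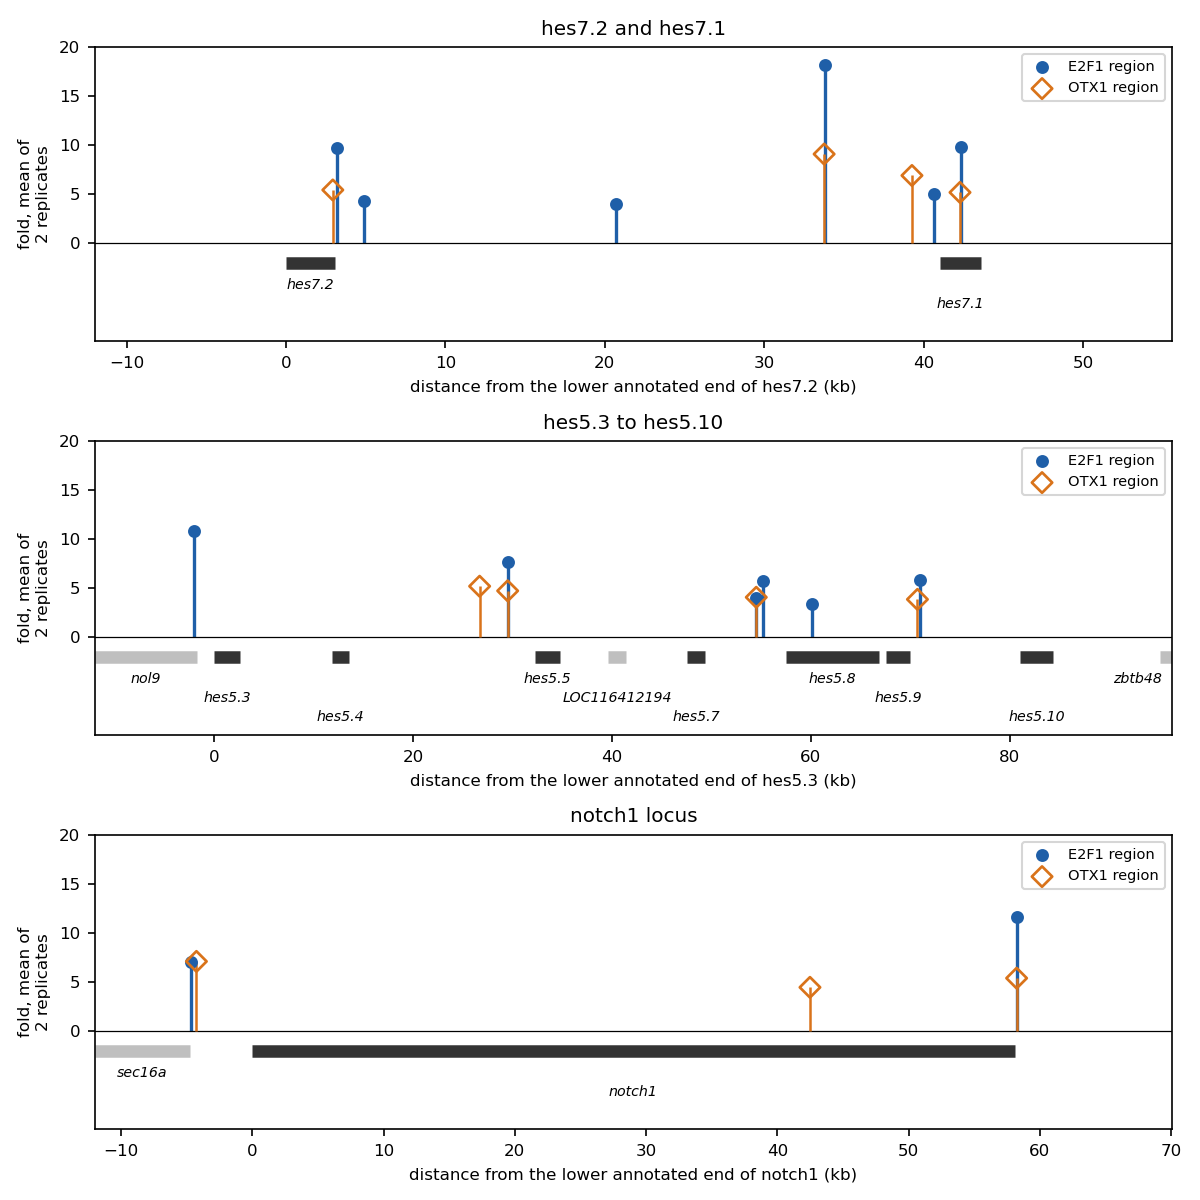
Maps of 3 loci, with genes of the set as dark bars, other genes as pale bars and the distance in kb from the lower annotated end of the first gene of the set on the x axis. Stems show the summit of each reproducible region, with the mean fold of both replicates as height (filled circles for E2F1, open diamonds for OTX1). The tall shared place between hes7.2 and hes7.1, the shared places between the hes5 genes, and the shared regions beyond either end of notch1 can be seen.

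Both Hey genes, mediators of Notch in mouse heart and vessel development, carried E2F1 at an end. The folds were 5.86 and 10.6 at hey1 and 5.84 and 6.34 at hey2, where the summit lay 14 bp from the end. The hey1 replicates differed more than those of any other region within 1 kb. OTX1 had no peak within 5 kb of hey1 and 1 at hey2 in replicate 2 alone (4.31). Of the Id genes, id2 (3.49 and 3.65) and id4 (5.40 and 4.10) had a weak E2F1 region at an end. OTX1 had a peak within 5 kb of id2 in replicate 1 alone (4.56). Id3, a target of BMP signals, had 3 E2F1 regions between 2151 and 4058 bp from its ends, led by the farthest (6.19 and 7.19). One of them (4.90 and 3.73) overlapped an OTX1 region (5.95 and 6.64) whose summit was 1848 bp outside the gene.

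OTX1 lay at few ends, and where it did E2F1 was usually there too. Within 1 kb, 5 of 41 genes (12.2%) had an OTX1 region (notch1, notch3, hes2, hes5.9 and hes7.2), against 7.18% of all protein-coding genes and 7.17% of other genes. Within 5 kb it was 15 of 41 (36.6%), against 22.0% of all and 22.0% of other genes, and 9 of the 15 were Hes genes. Among the genes under 10 kb it was 11 of 22 (50%), against 17.9% of other genes of that length, and among the longer ones 4 of 19 (21.1%), against 24.3%. Of the 20 genes with E2F1 within 1 kb, 10 (50%) had no OTX1 peak of either list within 5 kb, near the 46.1% of all protein-coding genes with E2F1 there. These 10 were notch2, adam10, mib1, numb, rfng, maml1, rbpj, hes6.1, hey1 and id4. With equal numbers of peaks in every list the OTX1 count within 5 kb was 5 of 41 (12.2%), against 12.8% of other genes. In OTX1 replicate 1 alone the count within 1 kb was 8 (19.5%), against 12.6% of other genes, and in OTX1 replicate 2 alone it was 4 (9.76%), against 11.8%. The OTX1 shares thus stood above, near or below those of other genes depending on the lists used.

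Regions of both factors lay within 5 kb of 14 of 41 genes (34.1%), against 13.3% of all protein-coding genes and 13.3% of other genes. Within 1 kb it was 4 (notch1, notch3, hes2 and hes7.2), a share of 9.76% against 4.38% of all protein-coding genes. Of these 4, notch1, notch3 and hes7.2 lost their OTX1 region within 1 kb when replicate summits had to lie within 100 bp. Hes2 lost the regions of both factors there without peaks whose local background exceeded 3 times the list median. Of the 15 genes with OTX1 within 5 kb, 14 (93.3%) also had E2F1, and dll4, the exception, had it at 5930 bp. Among other genes 60.3% of the 4776 with OTX1 within 5 kb had E2F1 as well. In 12 of the 14 genes (85.7%) regions of the factors that both had summits within 5 kb overlapped, against 50.9% of the 2878 other genes with both. The exceptions were lfng and hes3, where the OTX1 region over the E2F1 region at 4563 bp had its summit at 5526 bp. Of the 44 E2F1 regions within 5 kb of the set, 14 (31.8%) overlapped an OTX1 region, against 14.4% at other genes. Of the 18 OTX1 regions 13 (72.2%) overlapped E2F1, against 26.3% at other genes. The factors were precipitated from separate embryos, so overlap of regions does not show both on the same DNA. Without peaks whose local background exceeded 3 times the list median, 9 genes of the set (22.0%) had both factors within 5 kb, against 12.1% of other genes. With equal numbers of peaks in every list it was 5 (12.2%), against 7.06% of other genes.

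Deep inside the long genes of the set, OTX1 regions were found in more genes than E2F1 regions. Of the 19 genes of at least 10 kb, 7 (36.8%) had an OTX1 region more than 5 kb from both ends, against 26.8% of all such genes. Only dll4 (5.26%) had an E2F1 region there, against 13.3% of all such genes. The OTX1 regions lay in notch1, notch2, notch4, adam10, mib1, maml2 and maml3. The strongest were in adam10, 25018 bp from the end (folds 8.28 and 12.8), and in mib1, 16736 bp from the end (7.43 and 10.7). The 8 OTX1 regions amount to 0.852 per 100 kb of gene body, against 1.23 for other long genes, and the genes of the set are longer (median 49510 bp against 27365 bp). For E2F1 it was 0.107 per 100 kb in the set, against 0.452 in other long genes.

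E2F1 regions at the Hes genes had many fragments, low folds and a high local background. Summit fragments (the pileup) and local background were both solved from the fold and p-value of each peak. The 21 E2F1 regions within 5 kb of Hes genes had a median pileup of 29 and 29 fragments in replicates 1 and 2, a local background of 5.74 and 6.53 fragments and a fold of 4.76 and 4.39. In 12 of the 21 (57.1%) the background exceeded 2 times the list median in both E2F1 lists, against 14.9% of regions at other genes. The 44 E2F1 regions within 5 kb of the set had a median pileup of 27 and 33.5 fragments in replicates 1 and 2, against 20 and 24 at other genes. Their median local background was 3.74 and 4.14 fragments, against 2.49 and 2.86, and their median fold was 5.44 and 5.75, against 6.01 and 6.51. In 8 of the 44 (18.2%) the background exceeded 3 times the list median in both E2F1 lists, against 4.86% of regions at other genes. The region 2640 bp from hes4 had 60 and 93 fragments with folds of only 5.91 and 7.53. For id3 at 4058 bp they were 51 and 60 fragments, and for dll1 43 and 57. The 18 OTX1 regions had a median pileup of 20.5 and 23 fragments, against 18 and 18, on a local background of 4.46 and 3.73, against 2.67 and 2.28. Their median fold was 4.04 and 5.33, against 5.17 and 5.67 at other genes. They ranked low within the OTX1 lists, with a median mean fold percentile of 31.7, against 58.0 at other genes. What raises the local background at these genes was not tested. The sources used here do not say whether a control library entered peak calling.

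**Figure D4:**
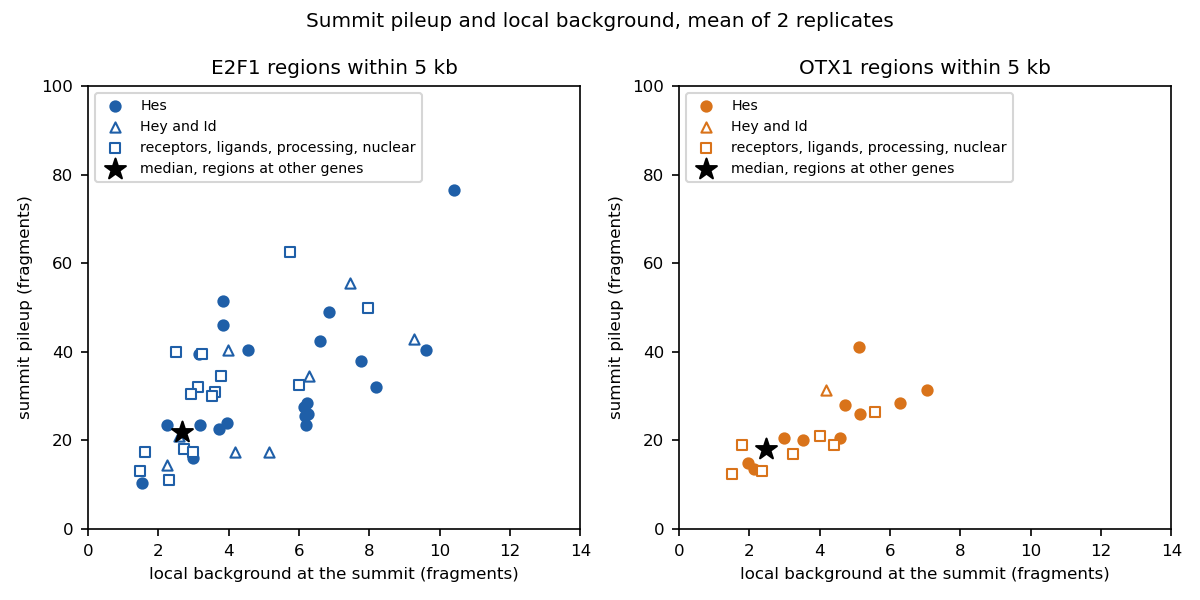
Fragments at the summit (y axis) against the local background (x axis, fragments), each the mean of both replicates, for the distinct regions within 5 kb of the 41 genes, with E2F1 on the left and OTX1 on the right. Filled circles are regions counted first for Hes genes, open triangles Hey and Id genes and open squares the other roles, and the star is the median of regions at other genes. Many Hes points lie to the right of the star, and the highest is the region 2640 bp from hes4, at 60 and 93 fragments in replicates 1 and 2.

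By single library, E2F1 peaks lay within 5 kb of 31 and 34 of the 41 genes (75.6% and 82.9%), and OTX1 peaks within 5 kb of 19 and 18 (46.3% and 43.9%). The mean was 79.3% ± 5.17 for E2F1 and 45.1% ± 1.72 for OTX1 (SD, n = 2 each). The difference was 34.1 percentage points (two-sided exact permutation test over libraries, p = 0.333, and this design can give no smaller value). Among other genes the E2F1 shares were also the higher ones, at 47.6% and 52.7% against 33.1% and 32.8% for OTX1, so the difference is not particular to the set. The antibody differs between the factors and cannot be told apart from them. The calling threshold differs too. A common −log10 q of at least 2, chosen after the data were examined, left the region counts of the set as they were. It was not applied to these single-library shares. In each E2F1 list the share exceeded that of other genes, by 28.0 and 30.2 points, and in each OTX1 list by 13.3 and 11.1 points. All 4 lists had a peak within 5 kb of 14 of the 41 genes (34.1%), against 15.0% of all protein-coding genes. No list had one for 5 (12.2%), against 32.7% of all protein-coding genes, and these were jag1, maml2, hes5.2, hes5.10 and hes6.2.

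Other genes of the pathway, taken from lists written with earlier results known, were read against the same background. Of 45 further Notch pathway genes, such as secretase subunits, ubiquitin ligases and corepressors, 27 (60.0%) had an E2F1 region within 1 kb and 31 (68.9%) within 5 kb, against 34.9% and 43.6% of all protein-coding genes. The highest were kat2a (17.0 and 17.2), a histone acetyltransferase, and spen (8.77 and 11.9), a corepressor partner of RBPJ. Next came ncstn (8.56 and 10.1), a subunit of gamma-secretase, the deacetylase hdac2 (8.22 and 10.4) and the ubiquitin ligase nedd4 (8.09 and 10.1). OTX1 lay within 1 kb of 7 (15.6%) and within 5 kb of 15 (33.3%), against 7.18% and 22.0%. Among its higher regions were those at nedd4 (7.89 and 10.5), dtx2 (6.72 and 6.36), dtx3 (5.99 and 5.58) and psen2 (5.48 and 5.67).

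A further list of helix-loop-helix genes held proneural genes and their partners, and also muscle factor genes and others. Of its 28 genes, 10 (35.7%) had an E2F1 region within 1 kb, near the 34.9% of all genes. Within 5 kb it was 15 (53.6%), against 43.6% of all genes. Among the higher ones were the E-protein genes tcf12 (8.14 and 8.10) and tcf3 (7.69 and 6.51), bhlhe40 (6.95 and 7.91) and atoh1 (6.07 and 6.99). OTX1 lay within 1 kb of 3 (10.7%) and within 5 kb of 10 (35.7%), against 7.18% and 22.0% of all genes. The leading ones at 5 kb were the muscle factor gene myog (8.91 and 9.89), neurod4 (8.37 and 8.62), mespb (7.97 and 8.39), olig2 (6.60 and 6.11) and tcf3 (5.43 and 5.96).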

How the data were processed

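Chromatin immunoprecipitation sequencing of stage 8 embryos gave 1 peak list per library, 2 for each factor. Tools named in the submitters' processing notes are MACS2 2.2.7.1, Bowtie2 2.4.5, deepTools and fastp, without roles. The deposited lists give a fold (a ratio to local background), summit significance as −log10 p and −log10 q, and a score equal to the whole part of 10 times the −log10 q-value. These values are the authors' own.

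From them, the whole number of summit fragments and the local background were solved, with a pseudocount of 1 in the fold and a Poisson tail for the p-value (largest misfit in −log10 p 4.56e-05, Python 3.11.15, SciPy 1.17.1). Read totals are not in the lists, so depth is known only as summit fragments, whose counting error is several fragments at a median of 16. Region building, gene windows and the solving step were tested on simulated data. Members and lists were chosen with earlier results of these data known, and the text names every member with a region within 1 kb or with both factors within 5 kb. The 1 test across libraries was an exact permutation test. Alternatives varied the lists, overlap, threshold, window and counting of neighbours. No genome sequence was used, so no sequence is shown. Some genes of the further lists are not reported here by name.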

Additional observations from a re-analysis of the deposited data

How the results depend on the processing

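The E2F1 counts stayed within 1.5 times their value under every alternative run, from 16 to 24 of 41 genes within 1 kb and from 25 to 34 within 5 kb, and stood above other genes in all 10 that give a share for other genes. The size of that excess varied, from 6.15 to 17.9 points within 1 kb and from 20.1 to 34.0 points within 5 kb. Within 1 kb it was 13.9 points in the main setting, 6.15 with equal list sizes and 8.77 without a high local background. The OTX1 count within 1 kb was 3 at a −log10 q of at least 5, 2 with equal list sizes, 2 with a reciprocal overlap of 50% and 1 with summits within 100 bp, and ran from 4 to 8 in single replicates. The share there fell below that of other genes with the reciprocal overlap (-0.49 points), with summits within 100 bp (-2.28 points) and in replicate 2 alone (-2.03 points). Within 5 kb OTX1 lay at 9 genes under the stricter q-value and at 5 with equal list sizes (-0.62 points). Both factors lay within 5 kb of 9 genes at that threshold (22.0%, against 7.52% of other genes), of 5 with equal list sizes (12.2%, against 7.06%) and of 9 without a high local background (22.0%, against 12.1%), a removal that took dll1, hes2, hes4, id3 and lfng. The cause of these changes was not tested. A common −log10 q of at least 2 in every list, chosen after the data were examined, left all 5 counts as they were.

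The alternative with the 5′ end alone was not run, because the gene table gives no strand. No paired analysis was possible because the counts come from no fitted test. Summits near the calling threshold hold few fragments, so single-list peaks and the order of weak regions are uncertain.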
